A study of Mus musculus with 4 samples.

Results

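A set of 1743 genomic regions was examined that carried an ATAC-seq peak in both libraries of RXR-deficient large peritoneal macrophages (LPMs) and in neither wild-type library when every library contributed the same number of peaks. ATAC-seq uses the Tn5 transposase to cut and tag open chromatin, and a peak marks a stretch cut more often than its surroundings. The set was selected on the peak values themselves. From each library the 16097 peaks with the highest −log10 q value were taken, which is the length of the shortest list, and peaks sharing at least 1 bp were merged into 22300 regions. The set is 7.82% of them. The reverse pattern, a peak in both wild-type and neither RXR-deficient library, held for 1610 regions (7.22%), called control-only below, and 10272 regions had a peak in all 4 libraries.

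All mice were C57BL/6 and 9 weeks old. WT denotes RXRabfl/fl mice, which carry floxed Rxra and Rxrb and no Cre. KO denotes LysMCre+RXRabfl/fl mice, in which a Cre driven by the LysM promoter deletes both genes in cells of the myeloid lineage. Each genotype is represented by 2 libraries of 40000 sorted LPMs, namely WT1 and WT3, and KO1 and KO2, all of library batch 1. The study left out ATAC-seq samples that did not cluster with their group, which can narrow the spread within a genotype. Nothing in the labels says whether the libraries of a genotype came from separate mice.

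RXRα and RXRβ are nuclear receptors that bind DNA as homodimers or with partners such as the retinoic acid, vitamin D, thyroid hormone, liver X and PPAR receptors, and recruit coactivators or corepressors. LPMs are the long-lived resident macrophages of the peritoneal cavity and depend on the factor GATA6 for their identity. Small peritoneal macrophages (SPMs) of the same cavity derive from monocytes, depend on IRF4 and carry CCR2 and MHC class II. In macrophages PU.1 marks enhancers together with factors such as C/EBP, AP-1, RUNX and MAF proteins, whereas CTCF binds insulators and the anchors of chromatin loops.

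The libraries differed in peak number and peak height, and equal numbers of peaks were therefore compared. The full lists held 38048 peaks in WT1, 16097 in WT3, 65421 in KO1 and 55581 in KO2. In the 10272 regions common to all libraries the median pileup, the number of tags stacked at the summit, was 121 in WT1, 26 in WT3, 126 in KO1 and 83 in KO2. The last peak taken had a −log10 q of 30.4 in WT1, 1.36 in WT3, 46.8 in KO1 and 28.4 in KO2. The WT3 list was thus used down to its end. Scaled to the WT3 median over the common regions, the KO2 pileups of the set came to 9.08 to 76.4 tags (median 16.3), and the smallest pileup listed in WT3 was 6 tags. That scaling used only regions that WT3 listed, and a peak over a higher background needs more tags. Whether depth accounts for the missing WT3 peaks was not tested.

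Sequences of the regions on which the results turn are given first, read from the mm10 (GRCm38.p6) reference on the plus strand and centred on the strongest summit. Capitals mark matches on either strand to PU.1 (GAGGAAGT), the PU.1-IRF composite, MAF (TGCTGAC), AP-1 (TGANTCA), C/EBP (TTGCNNAA) or CTCF. Other patterns are not marked, such as a GATA match within 100 bp of the D430042O09Rik summit but outside the stretch shown. The AP-1 and MAF letters can overlap, and a match describes the sequence without showing that a factor is bound. The first 4 had no WT1 peak at all and are an intron of Tns1 (chr1:73951360-73951510, AP-1 and MAF matches), an intergenic site nearest D430042O09Rik (chr7:125878137-125878257, no match), an intron of Cdh23 (chr10:60639381-60639501, PU.1-IRF) and an intron of Mgat5 (chr1:127425156-127425276, AP-1).
Tns1 intron: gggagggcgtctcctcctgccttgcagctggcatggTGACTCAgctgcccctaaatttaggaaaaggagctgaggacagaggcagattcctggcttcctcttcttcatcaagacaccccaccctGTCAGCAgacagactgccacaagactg
D430042O09Rik: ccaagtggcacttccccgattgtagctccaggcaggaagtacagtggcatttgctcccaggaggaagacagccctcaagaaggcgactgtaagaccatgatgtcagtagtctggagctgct
Cdh23 intron: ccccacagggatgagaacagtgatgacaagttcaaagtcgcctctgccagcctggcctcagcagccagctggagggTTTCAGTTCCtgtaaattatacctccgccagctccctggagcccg
Mgat5 intron: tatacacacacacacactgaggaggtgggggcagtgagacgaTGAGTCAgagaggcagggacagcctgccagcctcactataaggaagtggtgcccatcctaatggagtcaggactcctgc

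The next sequences belong to genes of macrophage biology described below. They are the strongest Maf region (chr8:115522654-115522774, intergenic, PU.1-IRF match), the Irf4 region (chr13:30786255-30786375, intergenic, PU.1 match) and the Rxra intron (chr2:27716561-27716681, C/EBP match).
Maf: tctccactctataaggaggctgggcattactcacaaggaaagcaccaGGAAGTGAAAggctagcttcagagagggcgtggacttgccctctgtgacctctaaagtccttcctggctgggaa
Irf4: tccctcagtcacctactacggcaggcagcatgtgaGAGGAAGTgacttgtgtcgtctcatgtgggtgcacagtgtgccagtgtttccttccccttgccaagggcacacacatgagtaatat
Rxra: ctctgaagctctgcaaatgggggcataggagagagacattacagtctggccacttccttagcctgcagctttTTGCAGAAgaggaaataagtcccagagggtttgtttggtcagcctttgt

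Strong regions that held a CTCF match are shown around that match, in capitals, because the share of such regions differed between the sets. They lie in an intron of Dicer1 (chr12:104742507-104742557) and between genes nearest Gap43 (chr16:42190258-42190308) and Prph2 (chr17:46904038-46904088).
Dicer1: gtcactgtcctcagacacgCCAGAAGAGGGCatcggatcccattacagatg
Gap43: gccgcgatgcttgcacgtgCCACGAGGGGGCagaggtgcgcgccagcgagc
Prph2: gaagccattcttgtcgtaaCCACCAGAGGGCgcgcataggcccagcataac

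Most regions of the set had a peak in WT1 as well, at a lower rank. A weaker peak was listed in the full WT1 list for 1605 of the 1743 regions (92.1%, 95% Wilson interval 90.7 to 93.3%), and 138 regions (7.92%) had none. WT3 listed a peak in 0 of the regions, which follows from the rule because its whole list was used. The rank of the weaker WT1 peak ranged from 16105 to 37999 with a median of 21061. For 398 regions it lay within 2000 ranks of the last peak taken, and for 160 it lay past rank 30000. In these bulk libraries, fewer cells with an open site and a less open site in each cell cannot be told apart.

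The summits of the libraries lay close together. The median distance between the KO1 and KO2 summits was 14 bp, and that between the WT1 summit and the strongest KO summit was 18 bp. All but 2 regions held a single peak in each KO library. The median width was 532 bp, beside 566 bp over all merged regions.

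Fold enrichment, the height of a peak over its local background, had a median of 16.3 in KO1 and 12.8 in KO2. In the 1605 regions with a WT1 peak its median there was 7.76. For scale, the median in the regions shared by all 4 libraries was 17.4 in KO1, 13.9 in KO2, 16.7 in WT1 and 8.87 in WT3. WT1 fold enrichment reached that of KO1 or KO2 in 36 regions.

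The median summit pileup was 76 tags in KO1, 52 in KO2 and 31 in WT1 where a peak was listed, each below the 126, 83 and 121 tags of the common regions. After division by each library's median over the common regions, the mean of KO1 and KO2 was a median of 2.50 times WT1, from 1.11 to 11.8 times. Scaled WT1 pileup was below both KO libraries in all 1605 regions. These ratios describe values that chose the regions, so no test was made. With 2 libraries per genotype a two-sided exact permutation test cannot give a p-value below 0.333.

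**Figure D1:**
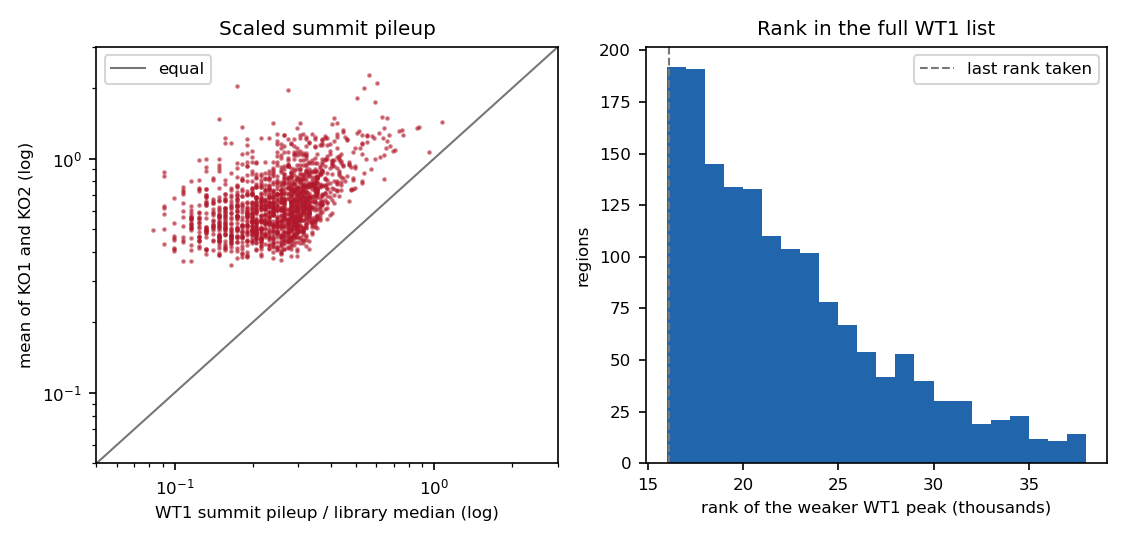
Left, summit pileup divided by the library median over regions in all 4 libraries, for the 1605 regions with a weaker WT1 peak (each point a region, WT1 on the x axis, the mean of KO1 and KO2 on the y axis, both axes log, the line marking equality). Right, the number of regions by rank of that WT1 peak in bins of 1000 ranks, with the dashed line at the last rank taken. The points lie above the line, and the WT1 ranks pile up just past 16097, with a median of 21061.

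The values at the edge of the rule differed little. The lowest-ranked KO1 peak in the set, near Gm4311, stood at rank 16096 with a −log10 q of 46.84, and a region near Mpzl1 was kept out by a KO1 peak at rank 16106 with 46.82. In KO2 the Dnah17 region at rank 16091 (28.39) was inside and a region near Inpp4a at rank 16111 (28.34) was outside. In WT1 the first peak not taken that falls in the set was near Fgf11 at rank 16105 (30.32), and 6430548M08Rik was kept out by a WT1 peak at rank 16096 (30.35).

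The set ranked in the lower part of the KO lists. The median rank was 11575 in KO1 and 11080 in KO2 of the 16097 taken. Both ranks were within 8000 for 156 regions, of which 10 had no WT1 peak, and within 4000 for 13 regions. The local background was also low. It was at least 5 times the library's lowest value in 19.2% of the set in KO1, beside 37.0% of all regions with a KO1 peak.

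The regions stood away from promoters. Promoter-TSS, the stretch reaching 1 kb before and 200 bp past a RefSeq TSS, held 228 regions (13.1%, 11.6 to 14.7%), beside 38.1% of control-only regions (35.8 to 40.5%) and 38% of all regions. Introns held 801 (46.0%, 43.6 to 48.3%) and intergenic sequence 599 (34.4%). Coding exons held 64, 3'-UTRs 32, 5'-UTRs 11 and non-coding exons 8. In the control-only set introns held 28.0% and intergenic sequence 31.2%.

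The distance to the nearest TSS had a median of 14550 bp, beside 4176 bp in control-only and 4348 bp in all regions. Within 5 kb lay 468 regions (26.9%, 24.8 to 29%), against 51.6% of control-only (49.1 to 54.0%) and 51.1% of all regions. The largest share, 56.6%, lay 5 to 50 kb away, and 16.6% lay farther. The promoter share was 6.52% in the 138 regions without a WT1 peak (3.47 to 11.9%) and 13.6% in the rest (12.1 to 15.4%). Intervals on shares cover counting error over regions only, and regions are not replicates of a genotype.

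**Figure D2:**
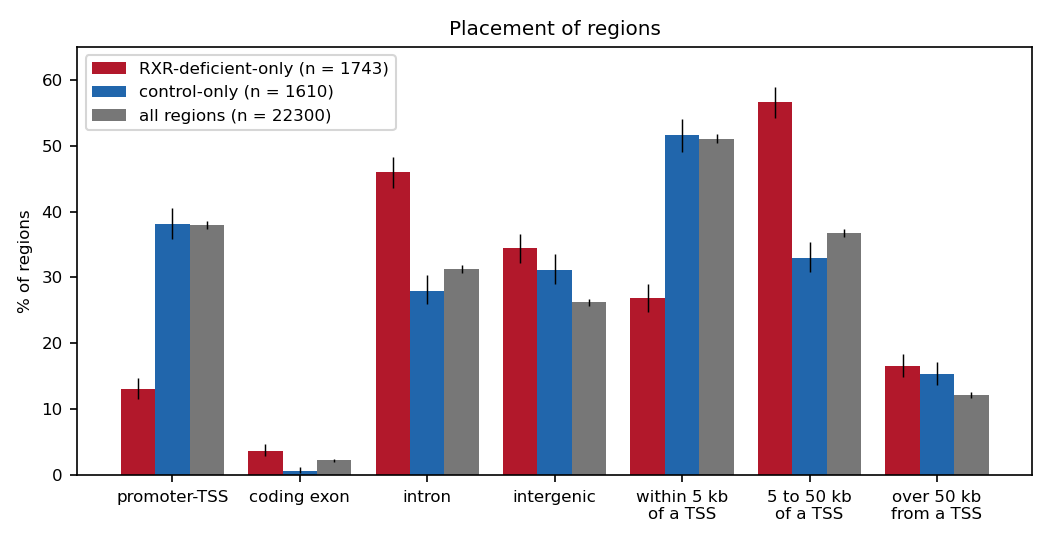
Percentage of regions (y axis) by place relative to RefSeq genes and TSSs (x axis) for the 1743 RXR-deficient-only, 1610 control-only and 22300 merged regions, with 95% Wilson intervals as error bars. Promoter-TSS held 13.1% of the RXR-deficient-only set and about 38% of both others, and sites 5 to 50 kb from a TSS held 56.6% of it.

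Base composition differed in CpG content. GC content within 100 bp of the summit had a median of 53.7%, beside 53.2% in control-only and 55.7% in all regions, whereas the observed to expected CpG ratio was 0.271, beside 0.410 and 0.419. Repeats covered at least 50% of the window in 2.87% of the set, 2.17% of control-only and 1.57% of all regions. The set was spread over the 19 autosomes, from 4.2% of the regions of chromosome 3 to 9.69% of those of chromosome 15.

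The regions were nearest to 1490 genes, and 86.2% of the regions had a protein-coding gene as nearest. A single region was assigned to 1296 genes, 194 genes had at least 2 and 12 had at least 4. For 417 of the genes (28.0%) a promoter-TSS region was present in all 4 libraries, so those promoters were called in every library while another site of the locus was in the set. The corresponding share was 20.1% of the 1430 genes nearest to control-only regions. Both kinds of region occurred at 165 genes, which is 11.1% of the genes of the set and 11.5% of the control-only genes. Neither the promoter share nor this overlap was taken over the genes nearest all merged regions. Whether they differ from that background was not tested.

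Cmip, an adaptor first described as a c-Maf-inducing protein, had the most, with 8 of its 20 regions in the set, 5 of them in its introns. Fold enrichment ran from 5.59 to 22.5 in KO1 and from 4.99 to 18 in KO2, and all 8 had a weaker WT1 peak of 4.27 to 9.64. The strongest, 15.8 kb upstream of the TSS, had 22.5 in KO1, 18 in KO2 and 9.64 in WT1. Cmip also had 1 control-only region and 8 regions open in all 4 libraries.

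Maf encodes c-Maf, a transcription factor of resident macrophages, and had 4 of 13 regions in the set. They lay 56.5 to 293 kb downstream of its TSS, and none was control-only. At 56.5 kb fold enrichment was 22.2 in KO1, 18.2 in KO2 and 11.9 in WT1. At 151 kb the values, in the order KO1, KO2, WT1 here and below, were 20.5, 16.3 and 7.86. At 184 kb they were 23.1, 18.5 and 10.7, and at 293 kb 20.1, 15.7 and 10.3. Each Maf region was thus higher in both KO libraries than in WT1, and WT1 ranked it 16433 to 23518.

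Zmiz1, a coactivator related to the PIAS proteins, had 5 of 19, including its promoter-TSS with 5.98 in KO1, 4.17 in KO2 and 4.97 in WT1. There the WT1 fold enrichment lay between the KO values, while the pileups were 149, 103 and 56 tags.

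Tns1, which encodes tensin 1, a link between integrins and actin, held 7 regions of the set in its introns out of 17, and 4 of the 7 had no WT1 peak. By nearest TSS, 4 of these belong to Tns1 and 3 to the RIKEN gene 6030407O03Rik. The most significant peak of the whole set was among them. Its fold enrichment was 14.7 in KO1 and 12.6 in KO2, its −log10 q 423 and 174, and its rank 94 and 508, and neither WT list had a peak there. The other regions of 6030407O03Rik had 6.14 and 5.09 in KO1 and 4.95 and 4.67 in KO2, again without a WT1 peak. At Tns1 itself the region 58.1 kb from the TSS had 12.4 in KO1, 9.50 in KO2 and no WT1 peak. The one at 71.2 kb had 14.4, 9.39 and a WT1 value of 5.45.

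Genes of signalling and adhesion made up most of the remaining loci with 4 regions. Selplg, the selectin ligand PSGL-1, had its promoter-TSS in the set with 9.66 in KO1, 7.14 in KO2 and 7.12 in WT1, and sites 4.69, 10.1 and 28.7 kb upstream. Il21r, a cytokine receptor gene, had its promoter-TSS (12.4 in KO1, 9.28 in KO2, 9.06 in WT1) and 3 further sites, and none of its 7 regions was open in all 4 libraries. Ubash3b, a phosphatase that restrains tyrosine kinase signalling, had 4 intronic sites with 8.95 to 20.7 in KO1 and 6.24 to 13.6 in KO2. Anks1 and Pid1, both adaptor proteins, had 4 each, with KO1 values of 10.0 to 13.9 and 13.2 to 17.3. Dnah17, an axonemal dynein, had 4, of which 2 lacked a WT1 peak. The 4 sites nearest Ldhal6b lay partly in Arid1b, a subunit of the SWI/SNF remodelling complex, which held 3 of them in its introns.

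Some regions of the set lay near each other on the chromosome. In 8 loci 5 regions of the set fell within 100 kb. These loci were at Gpr107 and Ncs1, Muc1 and Efna1, Capzb, Cmip, Dnah17 and Cyth1, Zcchc24 and Anxa11, Anks1, and Ltbp3 and Malat1. The same count was not made for control-only or all merged regions. Whether the set is more clustered than those was therefore not tested.

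Among the 138 regions without a WT1 peak, the 20 highest had fold enrichments of 19.2 to 26.2 in KO1 and 14.6 to 18.3 in KO2. None was a promoter, 9 were intronic and 11 intergenic. The highest lay 170 kb from the TSS of D430042O09Rik (26.2 in KO1, 18.3 in KO2). Genes of transcription were Tle3, a Groucho corepressor (22.4 and 18.2, 218 kb away), Ahr, the aryl hydrocarbon receptor (19.2 and 16.8, 54.0 kb), Nfatc2, a calcineurin-controlled factor (21.3 and 15.1), and Gtf3c4, a TFIIIC subunit (20.8 and 15.7). Each of these 4 lay over 20 kb from the TSS.

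Metabolic and membrane genes formed another part of the 20. Mgat5, which branches N-glycans, had 19.8 in KO1 and 18.1 in KO2 in its intron, and Mat2a, which makes S-adenosylmethionine, had 21.1 and 15.4. Plcl1, a phospholipase C-like protein, had 23.2 and 14.6 in its intron. A site near Anxa11, an annexin, had 21.2 and 16.1. Intronic sites of Cdh23, a cadherin, Tmco4, Pibf1 and Ak8 were nearest to the TSSs of Gm51803, Htr6, Dis3 and Gtf3c4. Others were nearest Rflna, Hmgb1-rs17, Tmem242, Ccdc80, Smim38, Efcab11 and Utp15.

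The 5 highest regions with a weaker WT1 peak had higher fold enrichments in KO2 than any of these 20. Near Tubgcp5, a component of the γ-tubulin complex, fold enrichment was 29.5 in KO1, 21.7 in KO2 and 9.81 in WT1. Near Ece1, the endothelin-converting enzyme, it was 27.1, 21.0 and 5.74. Near Slc25a33, a mitochondrial nucleotide carrier, it was 26.1, 21.2 and 6.05. Fer1l6 had 26.1, 21.8 and 11.4, and Rab3c, a vesicle GTPase, 25.7, 20.9 and 8.53.

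Of the targeted receptor genes, Rxra had 3 of 14 regions in the set, none control-only and 5 open in all 4 libraries. The intronic Rxra site 5.93 kb from the TSS had 5.04 in KO1 and 5.41 in KO2 with no WT1 peak. Its pileups were 140 and 141 tags over local backgrounds of 27 and 25.3. The site 54.5 kb downstream had 6.63, 6.62 and, in WT1, 6.77, and that at 61.5 kb had 8.55, 6.58 and 5.14. The strongest Rxra peak ranked 139 in KO1 and 213 in KO2, beside 2823 in WT1 and 2886 in WT3. Rxrb had 1 merged region and none in the set. The peaks give no reading of the deletion itself.

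**Figure D3:**
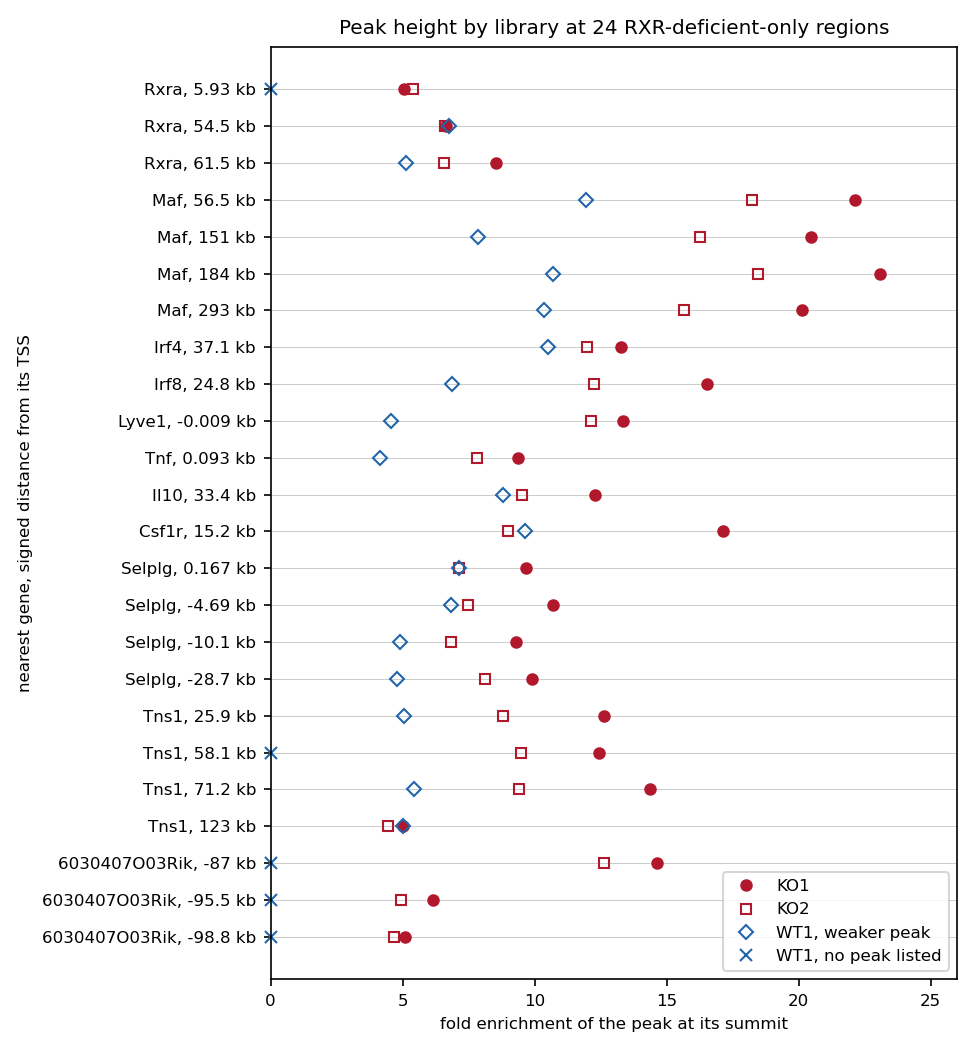
Fold enrichment at the summit (x axis, linear from 0) in KO1 (filled circles), KO2 (open squares) and WT1 (open diamonds, or a cross at 0 where WT1 lists no peak) for 24 regions of the set, labelled by nearest gene and signed distance from its TSS (y axis). WT3 listed no peak in any of them. Both KO points lie right of WT1 at the 4 Maf regions, and the regions of 6030407O03Rik and the Rxra intron have no WT1 peak. The peak values chose all the regions drawn.

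The partner receptors of RXR had 4 further regions in the set. Together with Rxra that made 7 of the 65 regions nearest the list of RXR and its partners (10.8%, 5.32 to 20.6%), beside 7.82% over all regions. Vdr, the vitamin D receptor, had 22.0 in KO1, 15.7 in KO2 and 5.39 in WT1 at a site 19.7 kb upstream. Thrb, a thyroid hormone receptor, had 21.9, 16.1 and 4.04. Ppard had 2 sites in coding exons of the neighbouring gene Def6 with 10.7 and 10.5 in KO1, 9.17 and 8.83 in KO2 and 8.36 and 6.19 in WT1. Control-only regions were 5 of the 65 (7.69%), beside 7.22% of all regions. Ranked by fold enrichment, 2 of 60 regions of this list met the rule (3.33%), beside 9.48% of all regions.

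Genes of LPM identity had no region in the set. The list held 24 genes, Gata6, Timd4, Icam2, Adgre1 and others. Of their 56 regions 0 belonged to the set (0 to 6.42%), beside 7.82% of all regions. Control-only regions were 13 (23.2%), beside 7.22% of all regions. Gata6 had 1 region, which was control-only, ranking 9592 in WT1, 7710 in WT3, 30021 in KO1 and 16356 in KO2. With any 1 library left out, 1 or 2 regions of the list met the rule (2.04 to 3.77%), beside 9.92 to 14.9% of all regions. Both regions of Naip1 were control-only as well. The paper named Gata6, Naip1, Thbs1 and Serpinb2, all in the list, as less accessible in RXR-deficient LPMs. The list was therefore not chosen independently of these data. At equal peak number the list had 45 peaks in WT1, 48 in WT3, 24 in KO1 and 29 in KO2.

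The SPM and monocyte-derived macrophage list had 3 of 29 regions in the set (10.3%, 3.58 to 26.4%), beside 7.82% of all regions. It had 1 control-only region (3.45%), beside 7.22% of all regions. The list includes Ccr2, Mrc1, Retnla, Fcrls and Cd209d, which the paper named as more accessible in RXR-deficient LPMs. Its share rested on few regions and was 7 of 25 (28.0%) without KO1 and likewise without KO2, beside 14.9% and 13.9% of all regions, and 0 of 8 with 8000 peaks. The Lyve1 promoter-TSS, a hyaluronan receptor gene, had 13.3 in KO1, 12.1 in KO2 and 4.55 in WT1, where it ranked 35002. The site 37.1 kb from Irf4, the SPM factor, had 13.3, 12 and 10.5. The site 14.4 kb upstream of Cd74, the MHC class II invariant chain, had 14.5, 11.2 and 6.44. At equal peak number the list had 13, 16, 18 and 19 peaks in WT1, WT3, KO1 and KO2.

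Other genes that the study examined did not join the set at equal peak number. The paper compared read counts over consensus peaks drawn from the full lists, with edgeR. Presence among the peaks of highest rank is a different measure, so absence here does not contradict the paper. Ccr2, Retnla, Fcrls, Cd209d and Clec4b1 had no merged region. Their best peaks ranked past 16097 in both KO libraries. In the order KO1, KO2, WT1 the best ranks were 20615, 20896 and 32492 for Fcrls and 47795, 33744 and 35512 for Ccr2. For Retnla they were 43888, 32713 and 24610, and for Clec4b1 29182, 32546 and 36634. Cd209d stood at 23899 in KO1 and 38905 in KO2 and had no WT1 peak. Fcrls had 7 peaks in each full KO list against 1 in WT1 and 0 in WT3. Mrc1 had 2 merged regions, Capn2 5, Thbs1 1 and Serpinb2 3, and none of these was in the set.

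Macrophage lineage factors had 16 of 185 regions in the set (8.65%, 5.39 to 13.6%) from 10 genes, close to the 7.82% over all regions. Besides Maf, the genes Runx1, Zeb2 and Klf6 had 2 each. The Runx1 introns had 15.0 and 12.5 in KO1, 12.9 and 8.64 in KO2 and 8.79 and 6.64 in WT1. Zeb2 had an intronic site with 9.97, 5.83 and 4.10, and a site 153 kb upstream with 17.5, 11.8 and 10.8. The Klf6 site 10.2 kb from the TSS had 4.87, 3.69 and 2.72, with pileups of 217 tags in KO1, 189 in KO2 and 65 in WT1. Klf4, Klf2, Runx3, Fos and Irf8 had 1 each. Irf8, a factor of monocytes and macrophages, had 16.5, 12.3 and 6.88.

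Cytokines, chemokines and their receptors had 7 of 106 regions in the set (6.60%, 3.24 to 13.0%), beside 7.82% of all regions. The Tnf promoter-TSS had 9.39 in KO1, 7.83 in KO2 and 4.15 in WT1, where it ranked 29252. A Csf1r intron, 15.2 kb from the TSS of the receptor for the macrophage growth factor CSF1, had 17.1, 9.01 and 9.62, so that WT1 lay between the KO libraries. Il10 had 12.3, 9.54 and 8.79 at 33.4 kb. Both TGF-β receptor genes had a site, with 14.9, 11.0 and 10.3 for Tgfbr1 and 16.5, 12.3 and 6.25 for Tgfbr2. Ccl5 and Tnfrsf1b completed the list.

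Adhesion, actin and motility genes had 7 of 86 (8.14%, 4.00 to 15.9%), beside 7.82% of all regions. Itga5, the α5 integrin chain, had its promoter-TSS (9.68 in KO1, 6.97 in KO2, 6.76 in WT1) and a site 27 kb upstream (17.7, 15.5, 6.05). Itgav had 20.4, 15.8 and 6.40, and Vcl, which encodes vinculin, 19.2, 13.0 and 8.09. Rac2, a GTPase of leukocyte motility, had its promoter-TSS in the set with 12.9, 11.3 and 8.24. Pxn and Elmo1 had 1 region each in the set and 1 control-only.

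Lipid and cholesterol genes had 4 of 83 (4.82%, 1.89 to 11.7%) and 10 control-only, an interval that includes the 7.82% over all regions. Fabp5, a fatty acid carrier, had 25.4, 16 and 7.41, Soat1, which esterifies cholesterol, 19.5, 11.4 and 10.4, the scavenger receptor gene Msr1 16.9, 14.5 and 10.4, and the Scd1 promoter-TSS 14.1, 11.4 and 6.01. Survival and death genes had 1 of 54 (1.85%, 0.328 to 9.77%), an intron of Bcl2 (19.2, 19, 11.5), and 7 control-only (13.0%). With 12000 peaks per library the survival list had 5 of 45 (11.1%), beside 8.33% of all regions. Pattern and uptake receptors had 1 of 77 (1.30%, 0.230 to 7.0%), near Tlr5 (20.5, 15.6, 8.28), beside 7.82% of all regions. Control-only were 13 (16.9%), beside 7.22% of all regions. Without KO1 the pattern receptor list had 7 of 73 in the set (9.59%) and without KO2 5 of 71 (7.04%), beside 14.9% and 13.9% of all regions.

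**Figure D4:**
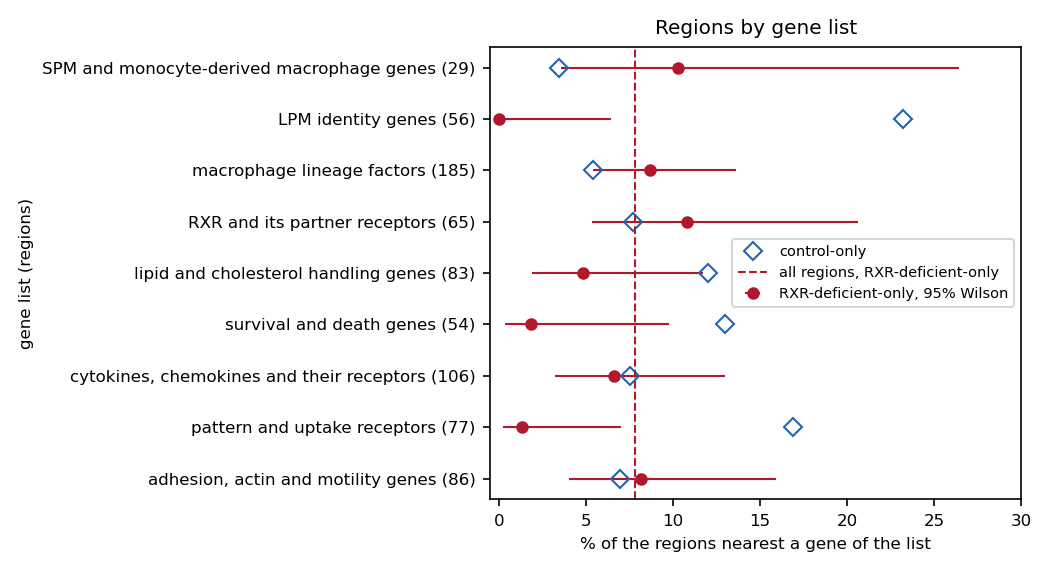
Share (x axis, %) of the regions nearest the genes of each list (y axis, with the number of regions) that were RXR-deficient-only (filled circles, 95% Wilson intervals) or control-only (open diamonds), for lists with at least 20 regions. The dashed line marks 7.82%, the RXR-deficient-only share over all 22300 regions. The LPM identity and pattern receptor lists stand at 0 and 1.30%, and the other intervals reach the line.

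Markers of other peritoneal cells differed by at most 3 peaks between libraries at equal peak number. B cell markers had 6, 5, 7 and 7 peaks in WT1, WT3, KO1 and KO2, T and NK cell markers 6, 4, 6 and 6, and neutrophil markers 4, 3, 4 and 5. Mast cell, basophil and eosinophil markers had 0, 3, 2 and 3, dendritic cell markers 1, 1, 2 and 2, and mesothelial and stromal markers 0, 1, 1 and 1. No peak in any full list was found for 5 of 15 B cell markers, among them Cd79a and Pax5, though only 13 were annotated. The same held for 5 of 18 T and NK cell markers, among them Cd3g, Cd4 and Cd8a. It held for 7 of 15 mast cell, basophil and eosinophil markers, 1 of 14 neutrophil markers and 3 of 10 mesothelial and stromal markers. All 10 dendritic cell markers had at least 1 peak, as had the remaining markers of the other lists. The set held 1 region each near Cd79b (15.4 in KO1, 12.7 in KO2, 7.86 in WT1), Hdc (13.9, 11.0, 7.33), S100a9 (19.1, 13.4, 7.75) and Dpp4 (22.1, 19.9, 6.40), and none for the T and NK or mesothelial lists. In the full lists, which held 38048, 16097, 65421 and 55581 peaks, T and NK markers had 25, 4, 63 and 42. B cell markers had 11, 5, 23 and 21 there, neutrophil markers 17, 3, 28 and 22, and dendritic cell markers 13, 1, 29 and 25. Mast cell, basophil and eosinophil markers had 15, 3, 27 and 22, and mesothelial and stromal markers 5, 1, 18 and 17. The part of other cells in the set was not tested.

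Promoters of genes outside these lists also belonged to the set. Among the highest, chosen after the values were seen, were Rph3a, which encodes the vesicle protein rabphilin, with 24.6 in KO1, 21.4 in KO2 and 8.97 in WT1, and Cyp2j6, a cytochrome P450, with 22.4, 17.1 and 9.43. Of the 228 promoter-TSS regions, 9 had no WT1 peak.

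Sequence motifs, which the rule did not use, differed between the sets. A PU.1 match lay within 100 bp of the summit in 13.8% of the set (12.3 to 15.5%), beside 5.53% of control-only (4.51 to 6.75%) and 8.74% of all regions. Since promoters were fewer in the set, the shares were also taken outside promoter-TSS, where they were 14.7%, 7.13% and 12.1%. The PU.1-IRF composite gave 7.13%, 3.71% and 5.66% there, and both PU.1 patterns occurred together in 19 regions of the set.

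A CTCF match was present in 96 regions (5.51%, 4.53 to 6.68%), beside 7 control-only regions (0.435%, 0.211 to 0.895%) and 2.24% of all regions. Outside promoter-TSS the shares were 5.94%, 0.201% and 2.93%. Of the 500 merged regions with a CTCF match, 19.2% were in the set, beside 7.82% of all regions. The Dicer1 intron shown above had a fold enrichment of 22.4 in KO1, 19.6 in KO2 and 12.5 in WT1, where it ranked 16127. The site near Gap43 had 23.6, 15.9 and 10.9, and the Mc5r promoter-TSS had 23.7, 16.4 and 11.1. A weaker WT1 peak was listed for 92 of the 96, and 59.4% of them were intergenic, beside 32.9% of the other regions of the set. Genes for CTCF and cohesin had 0 of 11 regions in the set (0 to 25.9%), beside 7.82% of all regions.

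MAF matches were found in 8.95% of the set (7.70 to 10.4%), beside 5.03% of control-only and 5.39% of all regions, and in 9.70%, 6.33% and 6.90% outside promoter-TSS. Of the 138 regions without a WT1 peak, 17 held a MAF match (12.3%, 7.84 to 18.8%). In the same regions PU.1 matched in 12 (8.70%, 5.04 to 14.6%) and CTCF in 4 (2.90%, 1.13 to 7.22%), beside 8.74% and 2.24% of all regions. Promoter-TSS held only 6.52% of these 138 regions. Outside promoter-TSS the shares of all regions were 12.1% for PU.1 and 2.93% for CTCF. The AP-1, MAF and NRF2 patterns share letters. AP-1 alone gave 13.7% of the set, 14.8% of control-only and 12.9% of all regions, and 15.0%, 21.9% and 18.7% outside promoters.

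GATA, C/EBP and E-box matches were less frequent in the set than among control-only regions. The letters AGATAAG, bound by GATA factors, were present in 12 regions (0.688%, 0.394 to 1.20%), beside 4.66% of control-only (3.73 to 5.80%) and 1.87% of all regions. C/EBP was present in 8.32% (7.11 to 9.71%), 14.5% (12.8 to 16.3%) and 10.4%, and outside promoters in 8.38%, 20.3% and 14.0%. The E-box gave 3.79% (2.99 to 4.79%), 9.81% (8.45 to 11.4%) and 6.97%. RUNX (TGTGGT) gave 17.6%, 17.1% and 15.3%, but 18.8%, 23.2% and 20.1% outside promoters, so that its order turned. MEIS (CTGTCA) gave 19.2%, 14.2% and 16.6%, and outside promoters it was present in 303 of 1515 regions of the set, 17.6% of control-only and 19.6% of all regions. Direct repeats of the nuclear receptor site, DR1, DR2, DR4 and DR5, were too rare to compare, with at most 2 matches each in the set and at most 41 in all regions.

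**Figure D5:**
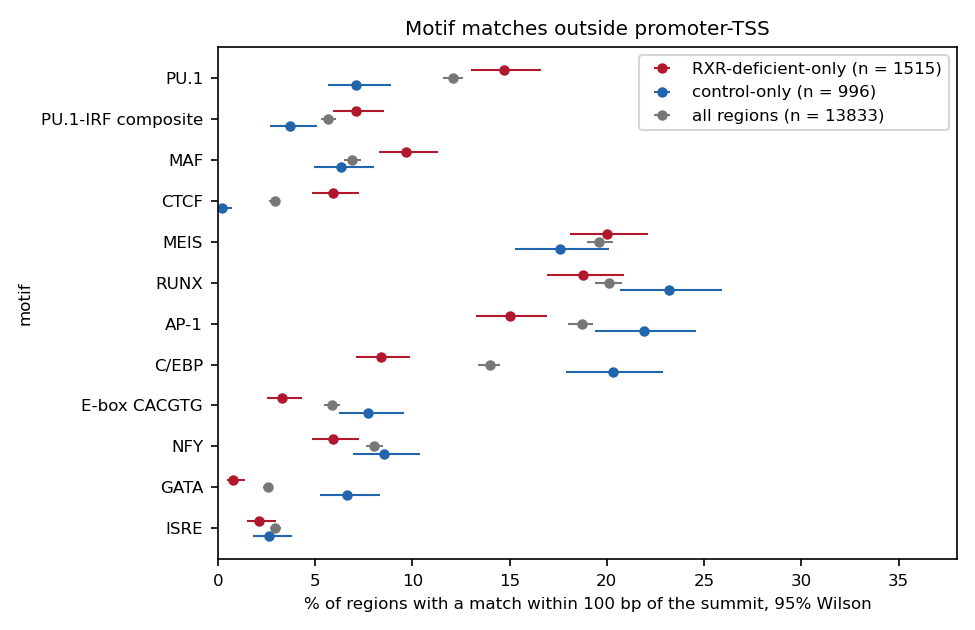
Percentage of regions outside promoter-TSS with a motif match within 100 bp of the summit (x axis) for 12 motifs (y axis), in 1515 RXR-deficient-only, 996 control-only and 13833 merged regions, with 95% Wilson intervals. PU.1, MAF and CTCF lie higher in the RXR-deficient-only set than in the control-only set, and GATA, C/EBP and the E-box lie lower.

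Membership depended on the number of peaks taken. With 12000 peaks per library 1408 regions met the rule and held 685 regions of the set (39.3%), and ranking by fold enrichment gave 2327 regions and shared 915 (52.5%). With 8000 peaks 156 regions of the set (8.95%) were kept, and with all peaks the 138 without a WT1 peak (7.92%). Without KO1 the count was 3164, without KO2 2914, without WT1 2947 and without WT3 2077.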

How the data were processed

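ATAC-seq libraries of sorted LPMs were compared, 2 from each genotype, grouped by the sample titles. The authors trimmed adaptors, aligned paired reads to mm10 with Bowtie2, removed duplicates and reads on mitochondrial and sex chromosomes, dropped blacklisted regions, and called peaks library by library with MACS2 2.1.1 (q value cutoff 0.05). Each deposited list holds a fold enrichment, the ratio of summit height to local background, and 2 significance columns: −log10 p-value and −log10 q-value. An integer score in the deposited lists was not used.

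The 16097 peaks of highest −log10 q per library were merged. A whole-number pileup of tags extended to 200 bp, and its background, were solved from fold enrichment and p-value with a pseudocount of 1 (98.24% to 100% of peaks), which was tested on simulated data together with the merging and the 23 motif patterns. Genes came from RefSeq of the same build (44527 NM and NR transcripts of 24952 genes), nearest TSS to the region's midpoint. Python 3.11.15, pandas 2.3.3, scipy 1.17.1 and pysam 0.24.0 were used. No test was made, since the peak values chose the regions. Wilson intervals are 95%.

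The regions, gene lists and motifs were chosen with earlier results of these data known. Regions and genes were named as the 20 highest without and 5 highest with a WT1 peak, the 12 genes with most regions, up to 4 genes per list, 14 genes of the study, edge regions and the 3 strongest CTCF matches. List genes past these 4, the 6030407O03Rik regions, the promoters and the Prph2 sequence were added after their values were seen. Some of the items so chosen are not reported here.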

Additional observations from a re-analysis of the deposited data

How the results depend on the processing

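No paired analysis was made, because the replicate numbers do not show a pairing of libraries across genotypes. No result comes from a test. The cause of each shift below was not tested. Cutting peaks to 100 bp either side of the summit, or requiring an overlap of 50% of the shorter peak, left the values within their interval or within 1.5 times. Ranking by fold enrichment gave a weaker WT1 peak in 79.7%, promoter-TSS 9.07%, within 5 kb 16.3% and CTCF 7.39%. With 12000 peaks these were 96.5%, 16%, 29.5% and 4.12%, and list genes had 9.19% of their regions in the set, beside 8.33% of all regions (main analysis 6.38%, 50 of 784, beside 7.82%). With 8000 peaks 1064 regions were found, with 99.0%, 20.7%, 34.4% and 3.67%. With all peaks the count was 16133 at a q value of 0.05 and 16126 at 0.01. By construction 0 and 0.0062% then had a WT1 peak, and promoter-TSS held 6.96%, within 5 kb 22.4%, CTCF 8.71% and list genes 19.6% at both, beside 22.8% of all regions. A promoter window of 1 kb either side gave 15.5%, and CTCF was 4.13% within 50 bp and 7.11% over the whole region. Leaving out a library gave 2077 to 3164 regions, a weaker WT1 peak in 87.6 to 93.3% (not defined without WT1), promoter-TSS 13 to 18.7%, within 5 kb 27.4 to 32.3%, CTCF 4.60 to 6.73%, list genes 9.41 to 14.4% (all regions 9.92 to 14.9%) and a median pileup ratio of 2.28 to 2.52. The pileup ratio under these settings was added after seeing the data. The shallow WT3 list limits what its missing peaks show.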
